A study of Mus musculus with 45 samples.

Results

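Mouse embryonic fibroblasts (MEFs) were followed for 8 h after an inflammatory stimulus, and the transcripts of 10 ubiquitin regulators of the NF-kB pathway were read out of 37991 genes counted. The 10 genes were chosen by symbol: Tnfaip3, which encodes A20, the A20-binding partners Tnip1 and Tnip2, the deubiquitinase Cyld, the cellular inhibitor of apoptosis ligases Birc2 and Birc3, and the adaptors Traf1, Traf2, Traf3 and Traf6. All 10 were present and all 10 passed the filter on low counts. The mutant cells were p53KO MEFs, labelled as p53 knockout, in 2 lines labelled KO-1 and KO-2 (1 library each per condition), and the controls were WT littermate MEFs with 1 library per condition. All cells were primary MEFs of strain C57BL/6 from embryos, held overnight in low serum and then given IL-1b at 10 ng/ml, TNF at 10 ng/ml or LPS at 100 ng/ml for 0, 0.5, 1, 3 or 8 h, which makes 30 p53KO and 15 WT libraries. Loss of p53 prolongs the life of primary MEFs in culture, and the series asked whether inducible expression in such cells resembles that of WT cells. Each stimulus had its own 0 h libraries. The labels call the p53KO libraries biological replicates and do not say whether each line came from a separate embryo, so p-values measure the spread between these 2 lines.

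As background, receptors for TNF, for IL-1 and for LPS relay their signal through chains of ubiquitin that are built on adaptor proteins and kinases. TRAF and cIAP proteins build or scaffold the chains on the way to the kinases that release NF-kB. A20 and CYLD take chains apart or block their use, and the A20-binding proteins, ABIN-1 and ABIN-2, assist A20. Several of these genes are themselves NF-kB targets, and A20 is a textbook example of feedback inhibition in fibroblasts.

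Gene counts totalled 5619870 to 15355994 per library (median 9347770). Trp53, the targeted gene, was at 50.9 to 86.6 CPM in KO-1 and 53.9 to 83.2 CPM in KO-2, against 158 to 293 CPM in WT (CPM, counts scaled to library size with TMM factors, the unit of every level below unless a scale per length is named). Transcript of the 10 fibroblast markers summed to 30600 to 40100 CPM in p53KO and 30700 to 38100 CPM in WT. The 8 leukocyte markers, which include macrophage genes, summed to 234 to 438 CPM in p53KO and 346 to 535 CPM in WT, and the T cell gene Cd3e was at or near 0. The 4 endothelial markers summed to 10.0 to 23.6 CPM in p53KO and 7.75 to 14.7 CPM in WT, and the 4 epithelial markers to 25.8 to 48.7 CPM in p53KO and 5.83 to 10.8 CPM in WT. The epithelial sum came mostly from Krt8 (0.908 to 11.6 CPM) and Krt18 (3.47 to 36.3 CPM). Epcam (0 to 0.744 CPM) and Cdh1 (0.0824 to 1.65 CPM) stayed low in all libraries. In bulk libraries, fewer cells of a type and less RNA per cell cannot be told apart. In 3 libraries levels ran most strongly against transcript length. These were both p53KO libraries at 0.5 h of IL-1b (rank correlation across genes -0.42 in KO-1 and -0.60 in KO-2) and the WT library at 3 h of IL-1b (-0.49). The others had -0.24 to 0.40, and the highest was KO-1 at 0 h of TNF, where KO-2 had -0.03.

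The transcripts moved in succession in p53KO cells. Tnfaip3 was the sole member called at 0.5 h under any stimulus, and it had risen 12.3-fold over 0 h with IL-1b, 13.1-fold with TNF and 2.51-fold with LPS. By 3 h most of the adaptors and ligases had joined, and at 8 h they were still above 0 h, most of them by less than 4-fold. Cell type markers moved at these times too. Of 6 leukocyte markers tested, 3 were higher at 8 h of TNF (median 0.35, 14.5% of all genes higher). At 8 h of LPS 3 were higher and 1 lower (median 0.51, 17.0% and 17.2% of all genes). Of 3 epithelial markers, 2 were higher at 3 h of IL-1b (median 0.60, 21.0% of all genes) and of LPS (median 0.58, 21.9%). Of 10 fibroblast markers, 3 were higher and 1 lower at 3 h of each stimulus and at 8 h of IL-1b and LPS. At 8 h of TNF 0 were higher and 1 lower. At 3 h of TNF 18.4% of all genes were higher, and at 8 h of IL-1b 12.5%. The part of the markers in the members' changes was not tested. A gene was called when edgeR's quasi-likelihood test, fitted to all 45 libraries, gave a Benjamini-Hochberg adjusted p under 0.05 over the 13851 genes tested.

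With IL-1b, 1 of 10 members was higher than at 0 h at 0.5 h (2.64% of all genes were called higher), 2 at 1 h (2.78%), 7 at 3 h (21.0%) and 6 at 8 h (12.5%). No member was called lower at these times, where 4.76%, 3.16%, 21.7% and 11.8% of all genes were. With TNF, 1 member was higher at 0.5 h (0.606% of all genes), 3 at 1 h (3.05%), 7 at 3 h (18.4%) and 9 at 8 h (14.5%). Traf2 was lower at 1 h of TNF (2.80% of all genes), the only lower call against 0 h among the members; at 0.5, 3 and 8 h of TNF 0.144%, 17.6% and 14.1% of all genes were lower. With LPS, 1 member was higher at 0.5 h (0.433% of all genes), 1 at 1 h (2.79%), 8 at 3 h (21.9%) and 9 at 8 h (17.0%). No member was lower with LPS, where 0.0939%, 2.52%, 22.1% and 17.2% of all genes were. Over the 10 members the median log2 change at 3 h was 0.58 with IL-1b, 0.81 with TNF and 0.74 with LPS, against -0.02, -0.01 and -0.02 over all genes tested. Of 120 combinations of member, stimulus and time, 55 were called higher and 1 lower, and in all 56 the WT library had moved the same way from its own 0 h. These combinations are not independent, because the times of a stimulus share its 0 h libraries. Each WT change rests on 1 library, and the agreement over all called genes was not computed. With line as a replicate block, the members called at 1 h of IL-1b numbered 4, with Tnip1 (adjusted p = 0.00719) and Traf1 (adjusted p = 0.0483) added.

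Between neighbouring times, from 0.5 h to 1 h, 4 members rose with IL-1b (6.39% of all genes), 2 with TNF (1.52%) and 1 with LPS (1.47%), and none fell (2.76%, 0.975% and 0.679% of all genes). From 1 h to 3 h, 4 members rose with IL-1b (19.9% of all genes), 7 with TNF (16.0%) and 8 with LPS (18.6%). Tnfaip3 and Cyld fell with IL-1b (20.9%), Tnfaip3 with TNF (15.2%) and no member with LPS (18.3%). From 3 h to 8 h, Cyld and Traf2 rose with IL-1b (18.5%), Traf2 with TNF (12.3%) and Cyld with LPS (20.2%). In that interval Tnfaip3 fell under each stimulus, with Tnip2 and Birc3 beside it for IL-1b (17.0%, 12.6% and 18.0% of all genes fell with IL-1b, TNF and LPS). Several of the smaller steps rested on single libraries. From 0.5 h to 1 h of IL-1b, Cyld was lost without KO-2 at 0.5 h (adjusted p = 0.303) or at 1 h (0.277), under DESeq2 (0.0911), and with length and GC trends removed, where its change was 0.15 in place of 0.36 (0.408). Traf1 was lost without KO-2 at 0.5 h (0.0538) or KO-1 at 1 h (0.0748). From 1 h to 3 h, Tnip1 with IL-1b was lost without KO-1 at 1 h (0.0839) or KO-2 at 3 h (0.289), and Birc2 with TNF without KO-2 at 1 h (0.0833) or KO-1 at 3 h (0.0630). From 3 h to 8 h of IL-1b, Cyld was lost without KO-1 at 3 h (0.158), KO-1 at 8 h (0.0571) or KO-2 at 8 h (0.0536) and under DESeq2 (0.0662), Traf2 without KO-2 at 3 h (0.0519) or at 8 h (0.168), and Tnip2 without KO-2 at 3 h (0.0901) or KO-1 at 8 h (0.0838). The TNF rise of Traf2 was lost without KO-1 at 3 h (0.188), KO-1 at 8 h (0.115) or KO-2 at 8 h (0.0785) and under DESeq2 (0.103). With line as a replicate block, Birc2 (0.0488) and Traf3 (0.0420) were also called from 0.5 h to 1 h of IL-1b, which makes 6 members.

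**Figure D1:**
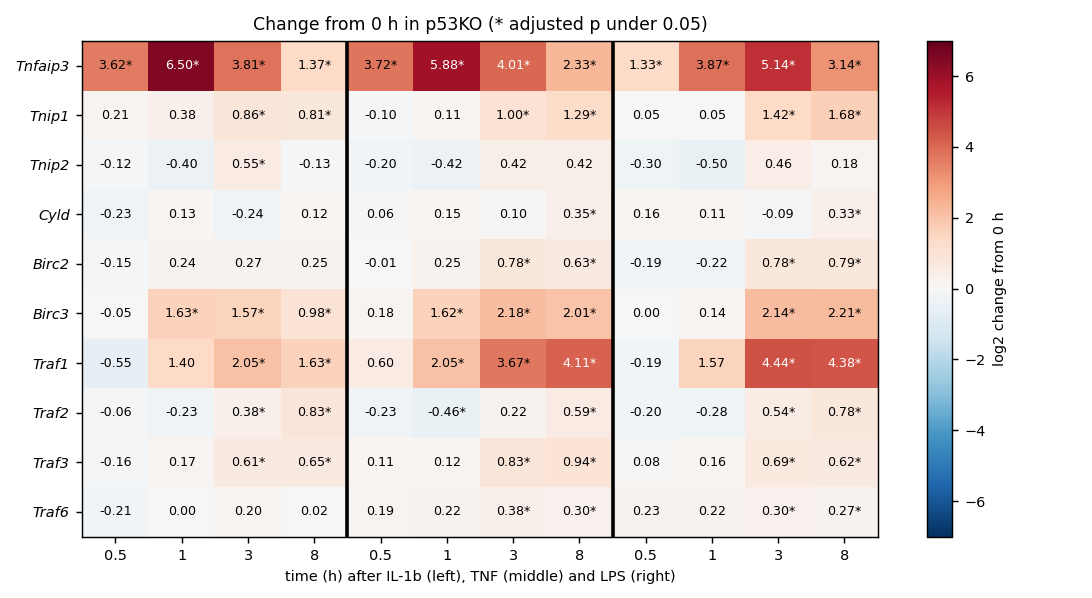
Log2 change from 0 h in p53KO cells for the 10 members (rows) at 0.5, 1, 3 and 8 h (columns) after IL-1b, TNF and LPS. Each cell prints its value, red is higher and blue lower, and an asterisk marks an adjusted p under 0.05. Tnfaip3 is called at all 12 points, and its row is darkest at 1 h of IL-1b and TNF and at 3 h of LPS.

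The promoter windows of the 4 members whose transcripts rose most are shown because these genes moved under all of the stimuli. Each line gives the 250 bases before the start of the gene in RefSeq (GRCm38.p6), 5′ to 3′ on the gene's strand, and capitals mark every match on either strand to a kB motif of GGG, any 5 bases and CC. Tnfaip3 has a further window in the table, and its upstream one is printed. The windows lie at chr10:19015411-19015660 (Tnfaip3), chr11:54962941-54963190 (Tnip1), chr9:7873171-7873420 (Birc3) and chr2:34961773-34962022 (Traf1), each on the minus strand. For Tnip1 the first 30 bases after this start were found in no GENCODE M21 transcript of the gene, so its start is less certain than the other 3.
Tnfaip3: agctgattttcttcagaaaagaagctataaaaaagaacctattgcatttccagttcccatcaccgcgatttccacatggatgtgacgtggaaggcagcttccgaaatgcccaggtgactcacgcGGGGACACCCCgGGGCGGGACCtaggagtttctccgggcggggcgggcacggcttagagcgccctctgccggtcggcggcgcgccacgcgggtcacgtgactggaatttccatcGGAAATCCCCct
Tnip1: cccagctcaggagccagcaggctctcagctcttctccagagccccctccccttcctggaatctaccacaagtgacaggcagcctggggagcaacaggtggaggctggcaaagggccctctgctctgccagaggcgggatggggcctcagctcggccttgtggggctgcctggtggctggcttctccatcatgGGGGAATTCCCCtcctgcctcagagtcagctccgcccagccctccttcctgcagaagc
Birc3: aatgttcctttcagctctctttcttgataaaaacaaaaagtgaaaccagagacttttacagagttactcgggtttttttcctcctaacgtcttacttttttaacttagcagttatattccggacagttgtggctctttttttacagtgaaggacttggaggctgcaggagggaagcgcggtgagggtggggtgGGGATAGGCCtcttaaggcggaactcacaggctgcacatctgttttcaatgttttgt
Traf1: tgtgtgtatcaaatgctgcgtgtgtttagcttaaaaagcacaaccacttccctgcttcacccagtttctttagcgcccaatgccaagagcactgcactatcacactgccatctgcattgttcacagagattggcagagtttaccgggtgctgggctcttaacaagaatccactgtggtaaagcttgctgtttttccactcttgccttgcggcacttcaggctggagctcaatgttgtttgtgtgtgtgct
The Tnfaip3 window held 4 matches, with a pair that overlaps by all but 1 base, and the nearest lay 12 bases before the start. It also held 1 match to the AP-1 motif TGANTCA and 1 match to the TATA letters TATAAA. The TATAAA match lay near the upstream end of the window, far from the start. The Tnip1 window held 3 matches that overlap one another within a single stretch, and the Birc3 window held 1, at 57 bases before the start. The Traf1 window held none. Among all 12 windows listed for the 10 members, 8 windows of 7 members held a kB match, and 45.8% of the 32851 RefSeq windows of this length did. The stricter motif of GGGA, any 2 bases and TTCC was found in the window of Cyld alone (1.21% of all windows), and AP-1 and TATA matches in the first window of Tnfaip3 alone (6.75% and 12.4% of all windows). A match describes these letters and says nothing of binding.

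A20, encoded by Tnfaip3 (chr10:18720716-18735463 in mm9), edits and binds ubiquitin chains and restrains NF-kB. With IL-1b, its level at 0, 0.5, 1, 3 and 8 h was 6.40, 87.6, 629, 84.5 and 17.7 CPM in KO-1, 8.25, 93.0, 697, 122 and 20.2 CPM in KO-2, and 7.43, 214, 980, 74.6 and 22.6 CPM in WT. The transcript peaked at 1 h in all 3 lines, and at no later time had it come back to the 0 h level. The p53KO change at 1 h was 6.50 on the log2 scale (SE 0.19, 90.5-fold, adjusted p = 7.94e-19). From there it fell by 2.69 at 3 h (SE 0.15, adjusted p = 1.91e-13) and by a further 2.44 at 8 h (SE 0.17, adjusted p = 4.12e-11).

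With TNF, Tnfaip3 stood at 8.12, 103, 461, 125 and 38.9 CPM in KO-1, 8.68, 118, 531, 145 and 47.3 CPM in KO-2, and 8.76, 189, 852, 132 and 65.3 CPM in WT, in the same order of times. The peak again lay at 1 h, where the p53KO change was 5.88 on the log2 scale (SE 0.19, 58.9-fold). With LPS the same 5 times read 8.72, 20.2, 101, 236 and 57.5 CPM in KO-1, 6.15, 16.6, 115, 285 and 72.3 CPM in KO-2, and 8.06, 17.1, 351, 207 and 69.1 CPM in WT. Under LPS both p53KO lines peaked at 3 h, whereas the WT library was highest at 1 h. The p53KO change was 3.87 at 1 h (SE 0.19) and 5.14 at 3 h (SE 0.19, 35.3-fold, adjusted p = 2.93e-17), and the step between these times was a rise of 1.27 (SE 0.14, adjusted p = 9.58e-08). The LPS call at 0.5 h (1.33, SE 0.22, adjusted p = 0.000915) rested on single libraries: without KO-1 at 0.5 h the adjusted p was 0.0655, and without KO-2 at 0 h it was 0.103.

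**Figure D2:**
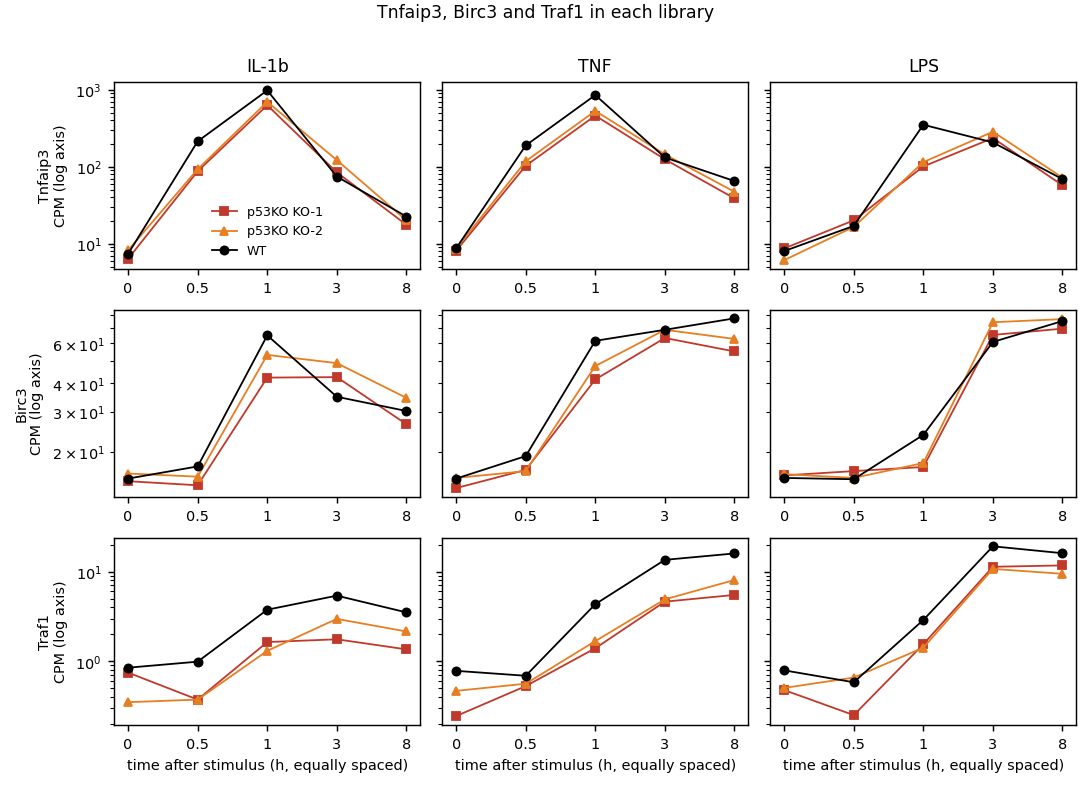
Levels of Tnfaip3, Birc3 and Traf1 (CPM, logarithmic axes) in each library against time after IL-1b, TNF and LPS (times equally spaced). Red squares are KO-1, orange triangles KO-2 and black circles WT, and each point is 1 library. Tnfaip3 peaks at 1 h with IL-1b and TNF, and Traf1 in WT lies above both p53KO lines at 14 of 15 points. In p53KO, Birc3 is called higher than at 0 h from 1 h with IL-1b and TNF and from 3 h with LPS.

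The partners of A20 differed from it and from each other. ABIN-1, encoded by Tnip1, binds A20 and ubiquitin chains. Its level at 0, 0.5, 1, 3 and 8 h of LPS was 27.8, 27.7, 28.1, 69.1 and 80.5 CPM in KO-1, 29.8, 32.1, 31.8, 85.7 and 105 CPM in KO-2, and 29.0, 28.8, 30.3, 90.7 and 101 CPM in WT. It lay flat for the first hour and stood higher in every library from 3 h on, with no overlap with the earlier times. With LPS its p53KO change was 1.42 at 3 h (SE 0.15, adjusted p = 2.79e-08) and 1.68 at 8 h (SE 0.15, adjusted p = 1.07e-09). TNF gave 1.00 at 3 h (SE 0.16) and 1.29 at 8 h (SE 0.15, adjusted p = 6.96e-07). IL-1b gave the smaller values of 0.86 (SE 0.15) and 0.81 (SE 0.15, adjusted p = 0.000329), and both were called. A gene on the opposite strand, Gm12230, overlaps Tnip1, and the strand setting of the counting is not given in the sources used here.

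ABIN-2, encoded by Tnip2, another A20-binding protein, stayed between 5.33 and 15.2 CPM over all libraries. It was called against 0 h only at 3 h of IL-1b, where KO-1 and KO-2 had 12.9 and 15.2 CPM, against 11.6 and 7.37 CPM at 0 h. That change of 0.55 (SE 0.19, adjusted p = 0.0210) was lost without KO-2 at 0 h (adjusted p = 0.333) or without KO-2 at 3 h (0.161), and DESeq2 gave 0.0807. With line as a replicate block the LPS change at 3 h (0.46) was also called (adjusted p = 0.0476). The step from 1 h to 3 h was called under every stimulus. From 1 h to 3 h Tnip2 rose by 0.95 with IL-1b (SE 0.20, adjusted p = 0.000381), 0.84 with TNF (SE 0.21, adjusted p = 0.00395) and 0.96 with LPS (SE 0.22, adjusted p = 0.00104). The TNF step of Tnip2 was lost without KO-2 at 1 h (adjusted p = 0.0530) or at 3 h (0.0976).

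Cyld, a deubiquitinase that trims linear and other chains, changed by small amounts with the stimuli. It stayed between 26.8 and 45.5 CPM in the p53KO libraries and between 25.4 and 52.3 CPM in WT. It was called higher at 8 h of TNF (0.35, SE 0.11, adjusted p = 0.0155) and of LPS (0.33, SE 0.10, adjusted p = 0.0146), and at no time of IL-1b against 0 h. With IL-1b it was lower at 3 h than at 1 h (-0.36, SE 0.11, adjusted p = 0.00869), a call lost without KO-1 at 3 h (0.122) or KO-2 at 1 h (0.108) and under DESeq2 (0.0501). At 8 h of TNF its levels were 44.2 and 45.5 CPM in KO-1 and KO-2, against 39.5 and 30.7 CPM at 0 h. The TNF call was lost without KO-1 at 8 h (adjusted p = 0.0725), KO-2 at 0 h (0.322) or KO-2 at 8 h (0.0604), and under DESeq2 (0.0604). The LPS call was lost without KO-1 at 8 h (0.0900) or KO-2 at 0 h (0.204).

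The 2 cIAP genes lie 13443 bases apart on chromosome 9 in mm9 and both encode ubiquitin ligases of RIPK1, yet their transcripts changed by different amounts. Birc3, which encodes cIAP2, read 14.8, 14.2, 42.4, 42.6 and 26.4 CPM in KO-1, 16.0, 15.5, 53.4, 49.1 and 34.5 CPM in KO-2, and 15.2, 17.2, 65.1, 34.9 and 30.2 CPM in WT at 0, 0.5, 1, 3 and 8 h of IL-1b. With TNF the same times gave 13.8, 16.6, 41.6, 63.4 and 55.3 CPM in KO-1, 15.3, 16.4, 47.7, 68.9 and 62.8 CPM in KO-2, and 15.2, 19.1, 61.6, 68.9 and 77.4 CPM in WT. Both stimuli had raised Birc3 in every library by 1 h, above all the 0 h and 0.5 h libraries. The p53KO change at 1 h was 1.63 with IL-1b (SE 0.13, adjusted p = 3.43e-10) and 1.62 with TNF (SE 0.14, adjusted p = 2.39e-09). From 3 h to 8 h Birc3 fell by 0.59 with IL-1b (SE 0.12, adjusted p = 0.000471), while the TNF step of -0.17 (SE 0.11) was not called.

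With LPS, Birc3 started later. It read 15.7, 16.4, 17.1, 65.4 and 69.7 CPM in KO-1, 15.9, 15.3, 17.8, 74.4 and 76.8 CPM in KO-2, and 15.3, 15.1, 23.7, 60.9 and 75.3 CPM in WT. The p53KO change was 0.14 at 1 h (SE 0.15, adjusted p = 0.712) and 2.14 at 3 h (SE 0.13, 4.41-fold, adjusted p = 4.12e-13). Birc2, which encodes cIAP1, rose by smaller amounts and not at every stimulus. Its p53KO libraries had 33.5 and 29.7 CPM at 3 h of TNF, against 18.9 and 17.8 CPM at 0 h, a change of 0.78 (SE 0.14, adjusted p = 0.000128). At 3 h of LPS they had 36.4 and 34.4 CPM, against 18.2 and 22.9 CPM at 0 h (0.78, SE 0.13, adjusted p = 4.02e-05). With IL-1b no time was called for Birc2, and its largest change was 0.27 at 3 h (SE 0.14, adjusted p = 0.113, or 0.0489 without KO-1 at 0 h and 0.0130 with a pooled 0 h baseline). Reads that align to both genes fall among the alignments that were not unique and were not counted.

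Traf1 began at low levels and was highest at 3 h or 8 h in each line under each stimulus. TRAF1 lacks the RING domain of its relatives and recruits cIAP proteins together with TRAF2. At 0 h the p53KO libraries held 2 to 9 reads of it, which limits its precision. With LPS it read 0.479, 0.252, 1.55, 11.3 and 11.7 CPM in KO-1, 0.506, 0.660, 1.42, 10.7 and 9.44 CPM in KO-2, and 0.794, 0.585, 2.89, 19.1 and 16.0 CPM in WT at 0, 0.5, 1, 3 and 8 h. The p53KO change with LPS was 4.44 at 3 h (SE 0.32, 21.7-fold, adjusted p = 2.43e-11) and 4.38 at 8 h (SE 0.32). With TNF it read 0.246, 0.530, 1.40, 4.62 and 5.49 CPM in KO-1, 0.469, 0.564, 1.68, 4.90 and 8.05 CPM in KO-2, and 0.784, 0.691, 4.33, 13.5 and 15.9 CPM in WT. The TNF change in p53KO was 3.67 at 3 h (SE 0.43) and 4.11 at 8 h (SE 0.40, 17.3-fold, adjusted p = 2.86e-08). The IL-1b libraries reached 1.76 and 2.97 CPM in KO-1 and KO-2 and 5.39 CPM in WT at 3 h, and the p53KO change there was 2.05 (SE 0.41, adjusted p = 0.000247). The IL-1b call at 8 h (1.63, adjusted p = 0.00680) was lost without KO-2 at 0 h (0.0984) or KO-2 at 8 h (0.107). The TNF call at 1 h (2.05, adjusted p = 0.0166) was lost without KO-1 at 0 h (0.175), KO-2 at 0 h (0.0569) or KO-2 at 1 h (0.0737), and under DESeq2 (0.0880).

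Traf2 encodes the ligase scaffold that joins cIAP proteins to the TNF receptor complex. Its p53KO libraries had 38.9 and 51.1 CPM at 8 h of IL-1b, against 25.1 and 25.6 CPM at 0 h, a change of 0.83 (SE 0.11, adjusted p = 6.81e-06). At 8 h of TNF they had 38.9 and 39.5 CPM, against 24.4 and 27.6 CPM at 0 h (0.59, SE 0.12, adjusted p = 0.000671), and at 8 h of LPS 41.4 and 47.7 CPM, against 24.8 and 27.1 CPM (0.78, SE 0.11, adjusted p = 6.52e-06). All 8 h libraries lay above their 0 h libraries. At 1 h of TNF the level was lower, with 19.4 and 18.4 CPM in p53KO, against 24.4 and 27.6 CPM at 0 h (-0.46, SE 0.13, adjusted p = 0.0308). That call was lost when any single library of the pair of times was left out (adjusted p 0.0501 without KO-1 at 0 h, 0.261 without KO-2 at 0 h, 0.0961 without KO-1 at 1 h and 0.139 without KO-2 at 1 h), and under DESeq2 (0.126). The IL-1b call at 3 h (0.38, adjusted p = 0.0131) was lost without KO-1 at 0 h (0.0666) or KO-1 at 3 h (0.120). Gm13433 overlaps Traf2 on the opposite strand.

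Traf3, which restrains the noncanonical NF-kB pathway by keeping the kinase NIK low, rose by less than 2-fold under every stimulus. At 8 h of TNF it had 101 and 102 CPM in KO-1 and KO-2, against 53.9 and 52.1 CPM at 0 h (0.94, SE 0.12, adjusted p = 1.36e-06). IL-1b gave 0.65 at 8 h (SE 0.11, adjusted p = 0.000137) and LPS 0.62 (SE 0.11, adjusted p = 0.000142). At each of these times both p53KO libraries lay above both 0 h libraries. The gene 4930595D18Rik overlaps Traf3 on the opposite strand. The libraries are stranded, but whether the counting used strand is not given. Traf6, the ligase that acts downstream of the IL-1 receptor and TLR4, stayed between 25.3 and 42.6 CPM in p53KO and between 23.7 and 38.9 CPM in WT. It was called higher at 3 h and 8 h of TNF (0.38 and 0.30, SE 0.09 each) and of LPS (0.30 and 0.27, SE 0.09 each), and at no time of IL-1b, where the 3 h change of 0.20 (adjusted p = 0.0654) was called with DESeq2 size factors (adjusted p = 0.0466) or a pooled 0 h baseline (0.00917). All 4 calls rested on single libraries. The TNF calls were lost without KO-2 at 3 h (adjusted p = 0.0511) and, at 8 h, without KO-1 at 8 h or KO-2 at 0 h (0.136 for each). The LPS calls were lost at 3 h without KO-2 at 0 h (0.0697) or at 3 h (0.0653), and at 8 h without KO-1 at 8 h (0.0822), KO-2 at 0 h (0.122) or KO-2 at 8 h (0.0519). DESeq2 kept only the 3 h TNF call (0.110 at 8 h of TNF, 0.0665 and 0.102 at 3 h and 8 h of LPS), and without the low-count filter both 8 h calls were lost (0.0731 with TNF and 0.0889 with LPS).

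**Figure D3:**
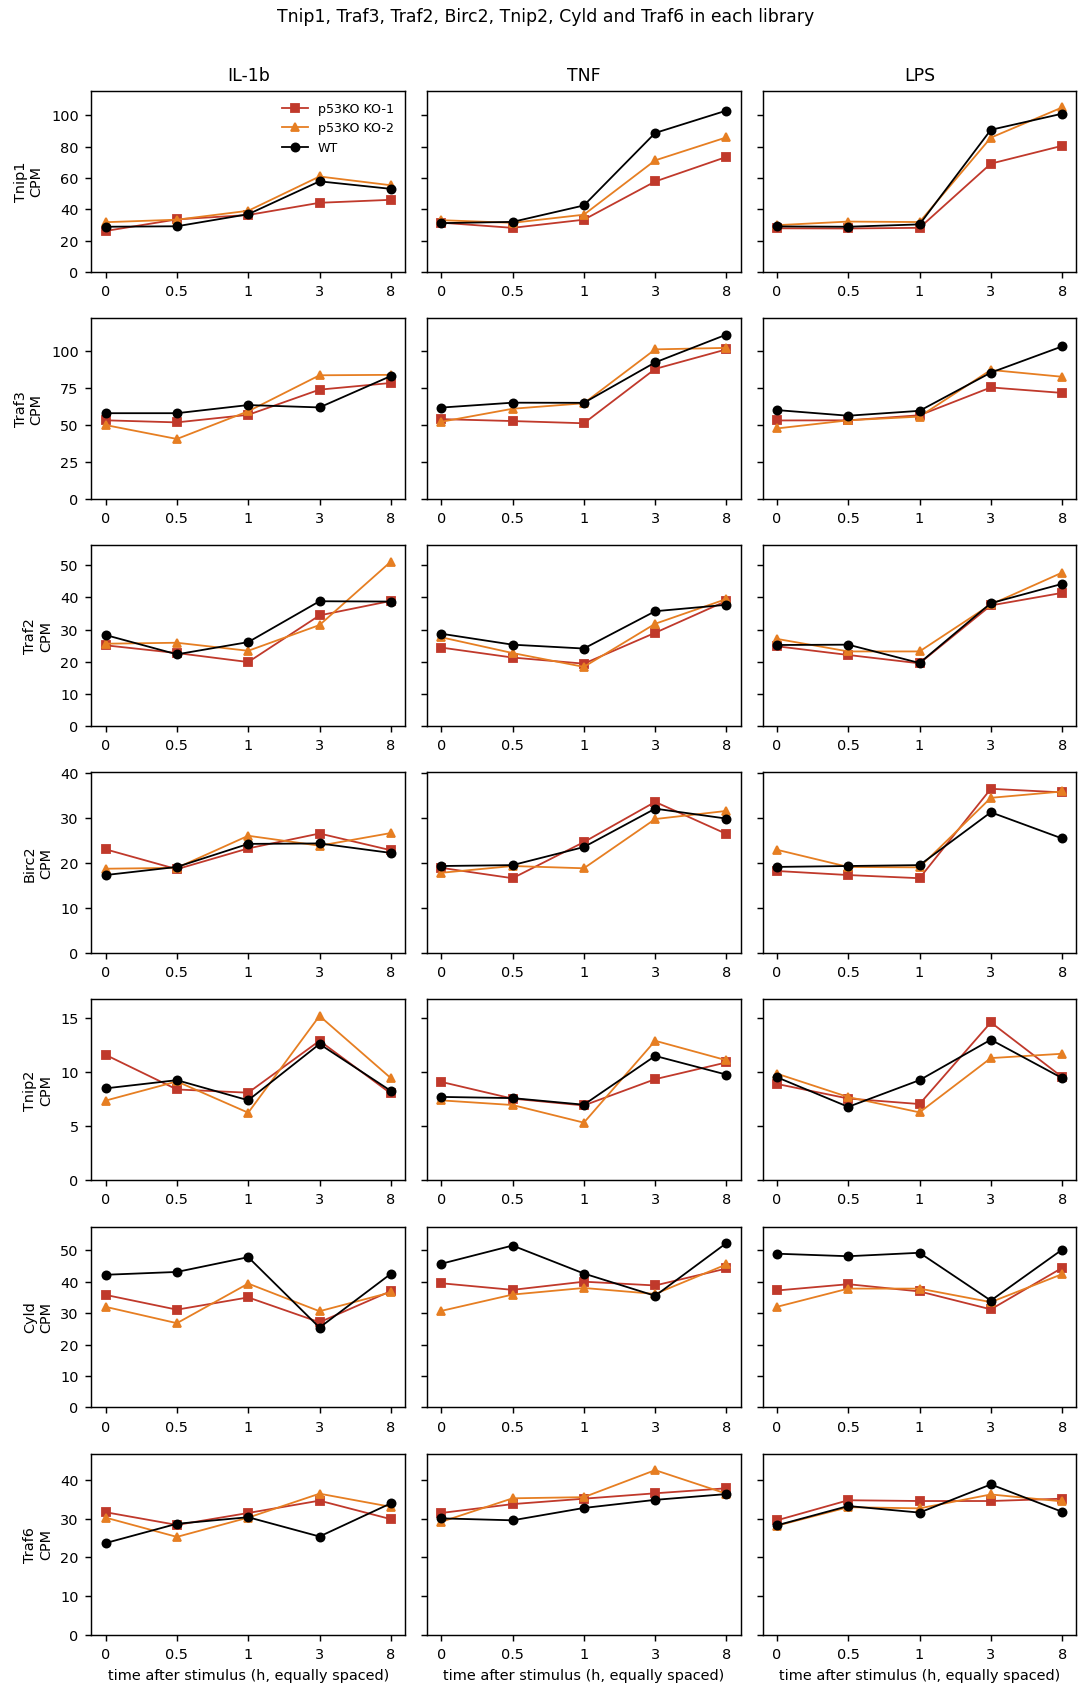
Levels of the other 7 members (CPM, axes from 0) in each library against time after IL-1b, TNF and LPS (times equally spaced). Red squares are KO-1, orange triangles KO-2 and black circles WT, and each point is 1 library. Tnip1, Traf2 and Traf3 stand higher at 8 h than at 0 h in all panels, while Cyld and Traf6 change little.

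Per kb of transcript, the order of the resting levels differed from the order of the responses. The mean at 0 h over the 6 p53KO libraries was 10.1 ± 0.872 CPM per kb for Tnip1 and 7.31 ± 0.338 for Traf3 (SD, n = 6 libraries of 2 lines). Traf2 (6.26 ± 0.313), Birc2 (5.98 ± 0.711), Birc3 (5.24 ± 0.291), Traf6 (4.88 ± 0.217), Tnip2 (4.47 ± 0.796) and Cyld (4.30 ± 0.435) followed in CPM per kb, and neighbours among these 6 overlapped in range. Tnfaip3 lay below all of these at 1.25 ± 0.185 CPM per kb, and Traf1 lowest at 0.136 ± 0.0492. The pair with the lowest resting levels, Traf1 and Tnfaip3, showed the largest changes. Across the 45 libraries, Traf1 followed Tnip1 (Pearson r of log2 CPM 0.91) and Birc3 (0.90), and Tnip1 followed Traf3 (0.88). Tnfaip3 ran apart, with r between -0.18 (Traf2) and 0.58 (Birc3), and so did Cyld, with r between -0.31 (Tnip2) and 0.28 (Traf3). These libraries share times, lines and stimuli, so r is a description only. By the same measure over 11777 genes, the patterns closest to Tnfaip3 were those of Nfkbia (0.939), Junb (0.929), Gem (0.922) and Csrnp1 (0.917). Closest to Birc3 were Nfkbie (0.948), Relb (0.936), Icam1 (0.923) and Ccl2 (0.907), and closest to Traf1 were Nfkbie (0.939), Icam1 (0.927), Ell2 (0.923) and Igsf6 (0.922).

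The changes of some members differed between the stimuli. The change from 0 h over the 4 later times in p53KO cells was compared between stimuli with an F test. LPS differed from TNF for 2 of 10 members, Tnfaip3 (adjusted p = 1.60e-12) and Birc3 (adjusted p = 8.20e-07), where 5.14% of all genes were called. LPS differed from IL-1b for 5 members, where 6.91% of all genes were called: Tnfaip3 (adjusted p = 1.55e-14), Birc3 (1.72e-10), Traf1 (0.000369), Tnip1 (0.000693) and Birc2 (0.00343). IL-1b differed from TNF for 2 members, Birc3 (adjusted p = 0.00210) and Tnfaip3 (0.00228), where 1.42% of all genes were called. The pair comparisons share libraries. With line as a replicate block, IL-1b minus TNF was also called for Tnip1 (adjusted p = 0.000482) and Traf1 (0.0498), and LPS minus TNF for Tnip1 (0.0325).

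In size, Tnfaip3 was lower with LPS than with TNF by 2.39 on the log2 scale at 0.5 h (SE 0.32, adjusted p = 0.000259; 0.0578% of all genes lower) and by 2.01 at 1 h (SE 0.30, adjusted p = 0.000705; 0.101%), and the sign turned at 3 h (1.13, SE 0.30, adjusted p = 0.0518, or 0.00216 with line as a replicate block and 0.00266 under DESeq2). Against IL-1b it was lower with LPS by 2.63 at 1 h (SE 0.30, adjusted p = 6.72e-06; 0.274% of all genes lower) and higher by 1.76 at 8 h (SE 0.31, adjusted p = 0.000430; 3.43% higher). Birc3 with LPS lagged at 1 h, by 1.48 behind TNF (SE 0.20, adjusted p = 0.000195) and by 1.50 behind IL-1b (SE 0.20, adjusted p = 6.78e-05). At 8 h Birc3 stood higher with LPS than with IL-1b by 1.23 (SE 0.19, adjusted p = 4.97e-05), and lower with IL-1b than with TNF by 1.03 (SE 0.19, adjusted p = 0.00764; 0.267% of all genes lower). Traf1 at 8 h was higher with LPS than with IL-1b by 2.75 (SE 0.64, adjusted p = 0.00835), and Tnip1 by 0.87 (SE 0.21, adjusted p = 0.0134). For Tnip2, Cyld, Traf2, Traf3 and Traf6 no pair of stimuli was called, and their differences at single times ran from -0.54 to 0.44, with SE of 0.12 to 0.31. Doses were fixed at a single level per stimulus, so an order of the stimuli holds for these doses.

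**Figure D4:**
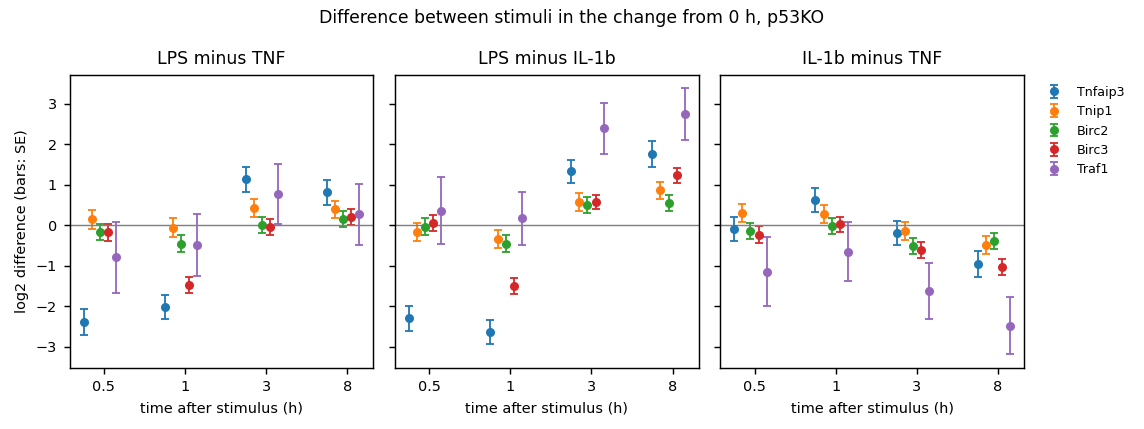
Difference between 2 stimuli in the log2 change from 0 h in p53KO cells, for LPS minus TNF, LPS minus IL-1b and IL-1b minus TNF, at 0.5, 1, 3 and 8 h. Points are fitted differences for Tnfaip3, Tnip1, Birc2, Birc3 and Traf1, bars are 1 SE, and the grey line is no difference. Tnfaip3 lies below the line with LPS at 0.5 h and 1 h and above it from 3 h.

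The comparison the series was built for, p53KO against WT, rests on 1 WT library per condition, so a WT library and the genotype cannot be told apart. In the change from 0 h, tested over the 4 later times, 2 of 10 members differed with IL-1b (5.74% of all genes), none with TNF (0.462%) and 1 with LPS (2.66%). For TNF, 2 members had an unadjusted p under 0.05, and DESeq2 called none. The LPS call was Tnfaip3 (adjusted p = 4.61e-05), which at 1 h had 101 and 115 CPM in KO-1 and KO-2, against 351 CPM in WT. The log2 difference there was -1.57 (SE 0.36), and its own adjusted p was 0.115 (0.130% of all genes were called lower at this time), or 0.00266 with line as a replicate block, 0.00159 under DESeq2 and 1.37e-08 without the low-count filter. Without the WT library at 1 h no difference can be formed there, so the F test then covered 0.5, 3 and 8 h only. It gave an adjusted p of 0.813. In the main fit the differences at those times were 0.25, 0.46 and 0.04 (SE 0.42, 0.37 and 0.38). The call thus rests on the 1 h difference, and its loss without that time is no separate test of the WT library.

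With IL-1b, Tnfaip3 (adjusted p = 0.00113) and Traf6 (0.0263) differed between genotypes over the 4 times. Tnfaip3 had 87.6 and 93.0 CPM in p53KO at 0.5 h, against 214 CPM in WT, and the difference in change was -1.22 (SE 0.36). For Traf6 the differences at 0.5, 1, 3 and 8 h were -0.48, -0.36, 0.10 and -0.50 (SE 0.16 each). All share the WT 0 h library of IL-1b, with 23.7 CPM of Traf6. The WT 0 h libraries of LPS and TNF had 28.3 and 30.1 CPM. WT libraries at 0 h were not left out in turn. The p53KO libraries at 0.5 h of IL-1b and the WT library at 3 h are those with the negative length trends given above. With length and GC trends removed Tnfaip3 remained called (adjusted p = 0.00202) and Traf6 did not (0.0695). Leaving out a WT library also takes its time out of the F test. Without the WT library at 3 h both calls were lost (adjusted p = 0.180 for Tnfaip3 and 0.405 for Traf6). The genes called then numbered 48, against 795 over the 4 times. Without the WT library at 0.5 h Tnfaip3 gave 0.0549, and without all IL-1b libraries at 0.5 h it gave 0.0654. Traf6 was also lost without KO-2 at 3 h (0.0837), without the low-count filter (0.0865) and under DESeq2 (0.210). With line as a replicate block, Birc3 (0.00405) and Cyld (0.0491) were added for IL-1b, and Tnfaip3 was called for TNF (0.0159). Leaving out KO-1 at 8 h, KO-2 at 1 h, KO-2 at 8 h or the WT library at 8 h also brought Birc3 under the threshold for IL-1b (adjusted p 0.0285 to 0.0492). Without the low-count filter, Birc3 (0.0115) and Traf3 (0.0460) were called for IL-1b and Tnfaip3 for TNF (2.88e-05).

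**Figure D5:**
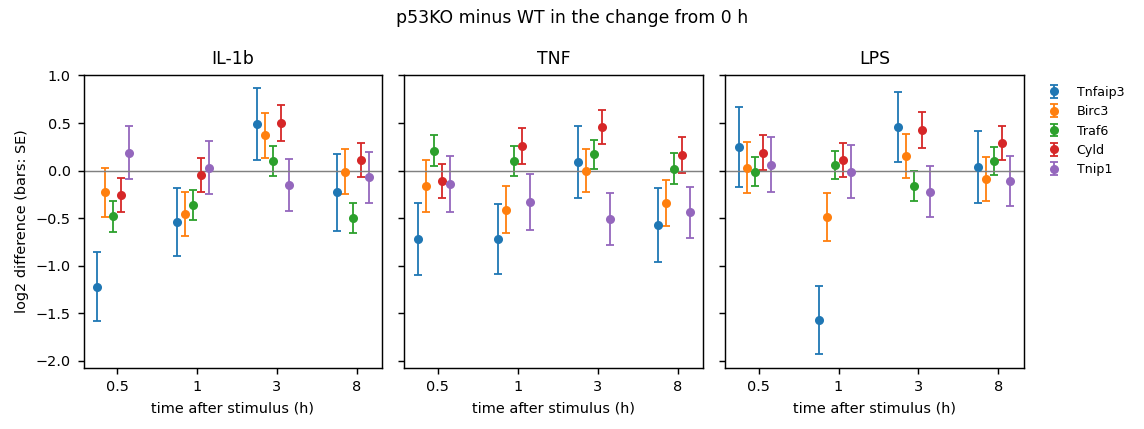
Difference between p53KO and WT in the log2 change from 0 h for IL-1b, TNF and LPS at 0.5, 1, 3 and 8 h. Points are fitted differences for Tnfaip3, Birc3, Traf6, Cyld and Tnip1, bars are 1 SE, and values below the grey line mean a smaller change in p53KO. The lowest points are those of Tnfaip3 at 1 h of LPS (-1.57) and at 0.5 h of IL-1b (-1.22).

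For the level itself, the 15 libraries of a line were added up and KO-1 and KO-2 were set against WT. Of 10 members, 4 were lower in p53KO and none higher, where 19.2% of 12918 genes were lower and 21.1% higher. Traf1 was lower by 1.12 (log2 -1.12, SE 0.14, adjusted p = 0.000781), and both p53KO libraries lay below the WT library at 14 of 15 stimulus and time points. These points repeat the same lines and are not replicates of the genotype. Cyld differed by -0.27 (SE 0.06, adjusted p = 0.00848). Both p53KO libraries lay below WT for Cyld at 13 of 15 points and above it at 2. At 0 h Cyld had 30.7 to 39.5 CPM in the 6 p53KO libraries and 42.2 to 48.9 CPM in the 3 WT libraries, with no overlap. Summed over the 0 h libraries alone, Cyld remained called (-0.40, adjusted p = 0.0113). Traf1 had too few counts to be tested at 0 h.

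Tnfaip3 differed by -0.44 (SE 0.06, adjusted p = 0.00153) in the sums, in which the libraries with the highest levels weigh most. Its median over the 15 libraries was 84.5 CPM in KO-1, 93.0 CPM in KO-2 and 74.6 CPM in WT, and at 0 h alone the difference was -0.08 (adjusted p = 0.768). Both p53KO libraries lay below WT for Tnfaip3 at 8 of 15 points and above it at 2. Traf3 differed by -0.15 (SE 0.05, adjusted p = 0.0465), with both p53KO libraries below WT at 11 of 15 points and above it at 1. That call was lost with the 0 h libraries alone (0.110), without the low-count filter (0.0929) and under DESeq2 (0.140). Beside these differences, the leukocyte markers summed to 234 to 438 CPM in p53KO and 346 to 535 CPM in WT, and the epithelial markers to 25.8 to 48.7 CPM in p53KO and 5.83 to 10.8 CPM in WT, with no overlap. The epithelial sum came mostly from Krt8 and Krt18, with Epcam and Cdh1 low in both genotypes. The part of the leukocyte or epithelial markers in the level differences was not tested. With 1 WT line, the line and the genotype cannot be told apart.

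Among 15 further ubiquitin enzymes and partners, 8 were higher and none lower in p53KO at 3 h of LPS, with 7 higher and 2 lower for IL-1b and 6 higher and 1 lower for TNF. Over all genes at 3 h, 21.9% were higher and 22.1% lower with LPS, 21.0% and 21.7% with IL-1b, and 18.4% and 17.6% with TNF. The median log2 change of that list was 0.21 at 3 h for each stimulus, against -0.02 (LPS and IL-1b) and -0.01 (TNF) over all genes. Usp18, which removes the ubiquitin-like protein ISG15, rose by 5.46 at 8 h of LPS (SE 0.20, adjusted p = 1.96e-17), against 1.45 with IL-1b and 1.28 with TNF. Tnip3, the third A20-binding partner, rose by 5.13 at 8 h of LPS (SE 0.60, adjusted p = 1.82e-07), by 2.78 with IL-1b and by 2.82 with TNF. Rnf31, the catalytic subunit of the linear ubiquitin ligase, was higher by 1.20 at 3 h of LPS (SE 0.14, adjusted p = 7.34e-08), and its 3 h values of 0.21 with IL-1b and 0.19 with TNF were not called.

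Of 16 kinases of the pathway, 7 were higher and 3 lower at 3 h of LPS, 5 higher and 3 lower with IL-1b, and 5 higher and 2 lower with TNF. The kinase medians at 3 h were 0.14, -0.06 and 0.12 for LPS, IL-1b and TNF, and the lower calls (3, 3 and 2 of 16) lay near or below the shares of all genes just given. Ripk2, a kinase of NOD receptor signalling, rose by 2.76 at 3 h of LPS (SE 0.14, adjusted p = 1.84e-14), 2.26 with IL-1b and 2.17 with TNF. Ikbke, an IKK-related kinase, rose by 1.62 (SE 0.18, adjusted p = 6.41e-08) and Irak3, an inhibitor of IRAK signalling, by 1.35 (SE 0.18, adjusted p = 1.06e-06) at 8 h of LPS. Of 15 receptors and adaptors, 14 were tested, and 8 were higher and 2 lower at 3 h of LPS, 7 and 2 with IL-1b, and 5 and 3 with TNF. Their medians were 0.57, 0.28 and 0.25 for LPS, IL-1b and TNF, to be read beside the same shares of all genes. The LPS co-receptor Cd14 rose by 2.60 at 8 h of LPS (SE 0.12, adjusted p = 5.21e-15), and the receptor genes Il1r1 by 1.78 at 3 h (SE 0.08) and Il1rap by 1.73 at 8 h (SE 0.10). Cflar, which blocks caspase-8, rose by 1.45 (SE 0.08), and the adaptor Myd88 by 1.50 (SE 0.10), both at 3 h of LPS.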

How the data were processed

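Stranded poly(A) RNA-seq libraries were measured in 30 p53KO and 15 WT samples. The authors deposited read counts per gene, which name no gene in 5 categories holding 24.65% of all counts; these were left out. STAR, featureCounts, DESeq and mm9 are named in the submitters' processing notes, without versions. Symbols were matched to 32919 of 37991 gene IDs.

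Counts were scaled by TMM and fitted in edgeR 4.0.16 (R 4.3.3) with its quasi-likelihood test over 30 groups of genotype, stimulus and time. Genes needed at least 1 CPM in at least 2 libraries (13851 genes), and the fit had 15 residual degrees of freedom. WT had 1 library per group, so its spread was assumed to be that of the p53KO pairs. Adjusted p-values are Benjamini-Hochberg values over all genes tested, with a threshold of 0.05. Levels were also tested on counts summed per line. The scripts were tested on simulated data. Levels per length used the longest transcript of each gene.

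KO-1 and KO-2 in the titles were read as lines that recur in every condition, so line was also used as a replicate block. Deviations of same-line libraries from their group means correlated at a median r of 0.191 (-0.169 to 0.504 over 105 pairs of groups and 9632 genes). Alternatives were DESeq2 1.42.0, its size factors, no filter, removal of length and GC trends with MASS, a pooled 0 h baseline, the p53KO libraries alone, and leaving out in turn each p53KO library and each WT library after 0 h. Counting intervals were not computed; replicate spread is given instead.

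The 10 members and all lists were chosen with earlier results of these data known. All members are described. Beyond them, the rule named up to 5 genes per list with the smallest adjusted p against 0 h and an absolute log2 change of at least 1, and the 4 genes with the highest r with Tnfaip3, Birc3 and Traf1.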

Additional observations from a re-analysis of the deposited data

Results flagged for a closer look

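Differences between genotypes or between stimuli in the change from 0 h are listed here by the adjusted p of the F test over 4 times. Between p53KO and WT, Tnfaip3 differed with IL-1b (0.00113) and with LPS (4.61e-05), and Traf6 with IL-1b (0.0263). Each of these differences sets p53KO against single WT libraries, and the calls depend on single times, as the report gives.

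Between LPS and TNF in p53KO cells, Tnfaip3 (1.6e-12) and Birc3 (8.2e-07) differed. Between LPS and IL-1b, Tnfaip3 (1.55e-14), Birc3 (1.72e-10), Traf1 (0.000369), Tnip1 (0.000693) and Birc2 (0.00343) differed. Between IL-1b and TNF, Birc3 (0.0021) and Tnfaip3 (0.00228) differed. The 7 calls that involve IL-1b were kept without the IL-1b libraries at 0.5 h.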

How the results depend on the processing

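Of 4709 single values of members under an alternative, 4559 were unchanged, 77 were no longer called and 73 were newly called. Unchanged means the same side of the threshold. Levels without 1 p53KO line have no p, and were unchanged if they shifted within the spread of those fits. Of signed values called in the main fit or the alternative, 0 changed sign. Sign changes of values called in neither were not counted, and F tests have no sign. The counts that moved by over 1.5 times follow, the value under the alternative before the reported one. With all 0 h libraries pooled, genes called at 0.5 h and 1 h numbered 2690 and 1601 for IL-1b (1024 and 823), 285 and 1791 for TNF (104 and 810) and 153 and 1533 for LPS (73 and 736). Members higher at 1 h of LPS then numbered 2 (1), and members lower 1 at 0.5 h and 3 h of IL-1b (0 each) and 2 at 1 h of TNF (1). From the 0 h libraries alone, the genotype levels gave 3331 genes (5213) and 1 member lower (4).

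DESeq2 called 596, 476 and 2048 genes at 0.5, 1 and 8 h of IL-1b (8 h: 3375), 757 from 0.5 h to 1 h (1267), 459 and 2503 at 1 h and 8 h of TNF (8 h: 3960), 2190 from 3 h to 8 h of TNF (3456) and 447 at 1 h of LPS. It called 1 member for the IL-1b genotype difference (2), 1 lower from 1 h to 3 h (2) and 1 higher from 3 h to 8 h of IL-1b (2), 0 higher from 3 h to 8 h of TNF (1) and 0 lower at 1 h of TNF (1). With length and GC trends removed, 423 genes were called at 0.5 h of IL-1b, 1 member for the IL-1b genotype difference, 1 lower at 3 h of IL-1b, and 2 higher at 1 h of LPS and from 3 h to 8 h of TNF.

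Without the filter, genotype differences called 1397 genes for IL-1b (795), 302 for TNF (64) and 730 for LPS (368), with 1 member for TNF (0). IL-1b minus TNF called 809 genes (197) and 4 members (2), LPS minus IL-1b 1509 genes (957), and 0.5 h 169 genes for TNF and 139 for LPS. Members higher then numbered 4 at 1 h of IL-1b (2), and 2 at 1 h of LPS, from 0.5 h to 1 h of LPS and from 3 h to 8 h of TNF (1 each). With the replicate block, genes called numbered 1537 at 0.5 h of IL-1b, 1360, 174 and 710 for the genotype differences with IL-1b, TNF and LPS, and 477 for IL-1b minus TNF. Members then numbered 4 at 1 h of IL-1b, 4 and 1 for the genotype differences with IL-1b and TNF, 4 for IL-1b minus TNF, and 2 and 3 higher from 3 h to 8 h of TNF and LPS (1 each). The block added Tnip1 there, at an adjusted p of 0.00804 with TNF and 0.0153 with LPS, and Traf2 with LPS (0.0468). At single times it added Tnfaip3 at 8 h for LPS minus TNF (0.0362) and IL-1b minus TNF (0.0385), and Tnip1 (0.0113) and Birc3 (0.0182) at 3 h for LPS minus IL-1b. Beyond these and those in the report it changed no member's call.

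2 alternatives were added after seeing the data. Without the IL-1b libraries at 0.5 h, 1 member differed by genotype with IL-1b (2) and 84 genes for IL-1b minus TNF (197). The other left out each WT library after 0 h, which also takes that time out of the genotype F test. It is included in the following ranges. With a single library left out, genes called ranged from 164 to 653, 476 to 549 and 2021 to 2454 at 0.5, 1 and 8 h of IL-1b, 580 to 812 from 0.5 h to 1 h of IL-1b, 487 to 650 and 2116 to 3114 at 1 h and 8 h of TNF, 154 to 325 and 1840 to 2560 from 0.5 h to 1 h and 3 h to 8 h of TNF, 390 to 448 at 1 h of LPS and 154 to 260 from 0.5 h to 1 h of LPS. For genotype differences they ranged from 48 to 848 (IL-1b), 22 to 79 (TNF) and 164 to 414 (LPS), and for IL-1b minus TNF from 100 to 277. Members called ranged from 0 to 3 (IL-1b) and 0 to 1 (LPS) by genotype, 2 to 5 higher from 0.5 h to 1 h, 1 to 2 lower from 1 h to 3 h and 0 to 1 higher from 3 h to 8 h of IL-1b, 0 to 0 lower at 1 h of TNF, 0 to 1 higher from 3 h to 8 h of TNF, 0 to 1 higher at 0.5 h of LPS and 1 to 2 higher from 3 h to 8 h of LPS. The causes were not tested, apart from the fewer samples or genes that an alternative itself brings. Low counts limit Traf1 and Tnip2 most.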
